A study of Homo sapiens with 9 samples.

Results

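The 8 hepatocyte identity transcription factors HNF4A, HNF4G, FOXA1, FOXA2, FOXA3, ONECUT1, PROX1 and NR5A2 were followed in HepG2, a human liver cancer cell line. The members were taken by gene symbol, and 8 of 8 were found among the 24204 symbols of the expression table. Cells were infected with lentivirus for RNA interference. The virus carried either a control hairpin (shCtrl) or 1 of 2 short hairpins directed at TRIB3, a pseudokinase gene that is induced under amino acid shortage (shTRIB3-1 and shTRIB3-2). Infection lasted 48 h, puromycin selection another 48 h, and cells were collected at the second passage, so all groups carried a virus and had gone through selection. Each group held 3 RNA-seq libraries, and nothing in the labels says that these came from separate cultures, so the p-values measure the spread between libraries, which may be technical. By the labels the cells grew in high-glucose DMEM with fetal bovine serum. The methods, written in common for all RNA-seq of the paper, describe RNA from cells deprived of glutamine. The paper's discussion, however, speaks of changed repair gene expression after TRIB3 depletion when glutamine was not withdrawn. The medium at harvest is therefore not fully certain.

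Hepatocyte identity is held by a small set of DNA-binding proteins that bind one another's genes and, together, the genes of the liver. FOXA proteins are pioneer factors, able to bind sites in closed chromatin, while HNF4A and NR5A2 are nuclear receptors and ONECUT1 and PROX1 are homeodomain proteins. Several of these factors switch on genes for albumin, apolipoproteins, clotting factors and bile acid synthesis in liver. Several are also used in pancreas and intestine.

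Expression is given as FPKM, the number of sequenced fragments scaled for gene length and for the fragments counted on genes in the library. Levels can be compared between genes only as far as the gene lengths used hold. Fold changes are differences of log2(FPKM + 0.1) with their standard error (SE), and adjusted p-values come from limma over the 11265 genes with at least 1 FPKM in at least 3 libraries. A gene passed at an adjusted p under 0.05, and it was called when it passed with an absolute log2 fold change above 1. Depth, counted on genes, ran from 34206726 to 36311029 fragments per library. TRIB3 itself was at 66.8 ± 1.08 FPKM under shCtrl, 33.6 ± 0.760 under shTRIB3-1 and 20.5 ± 0.171 under shTRIB3-2 (SD, n = 3 each), which is 50.3% and 30.8% of the control level, so the libraries match their labels and the second hairpin left less TRIB3 mRNA. Many genes differed between these libraries: 74.4% of tested genes passed with shTRIB3-1, 75.9% with shTRIB3-2 and 45.8% between the hairpins, and the counts below are read against these shares. The median tested gene moved by -0.06 on the log2 scale with shTRIB3-1 and by -0.03 with shTRIB3-2.

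The hairpins are printed because the factors did not respond alike to both of them. Each is the 21-base target stretch of the TRIB3 mRNA as given with the study, and both lie in coding exons on chromosome 20 of GRCh38 (GENCODE v44, plus strand). The shTRIB3-1 target is in exon 2 of 4 of the reference transcript at chr20:388072-388092 and in 4 of 4 annotated transcripts. The shTRIB3-2 target is in exon 3 at chr20:391473-391493 and in 3 of 4 transcripts. Neither stretch occurs exactly in an annotated transcript of any of the 8 factors. Partial matches were not searched, so an action of a hairpin on other transcripts was not tested.
shTRIB3-1: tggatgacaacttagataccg
shTRIB3-2: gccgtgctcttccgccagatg

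Promoter windows were read from RefSeq (GRCh38.p14, 250 bases before to 50 bases after the annotated start) to show which letters these factors could meet at one another's start sites. Windows were given for 5 of the 8 factors, 7 windows in all, with 2 each for HNF4A and NR5A2. Windows for FOXA2, HNF4G and PROX1 were not used here. Core letters of 4 factor families were searched on both strands. The FOXA core was spelled TGTTTAC, with TGTTTGC counted as well. The ONECUT core was spelled ATTGAT, with ATCGAT counted as well. HNF4 was searched as AAAGTCC alone. For NR5A2 the core was AAGGTCA, with AAGGCCA counted as well. Because the study concerns G-quadruplexes, folded structures of guanine-rich DNA, stretches with 4 runs of GGG separated by 1 to 7 bases were searched as well. Capitals mark every match, on the strand of the gene.
ONECUT1 (chr15:52790287-52790586, minus strand): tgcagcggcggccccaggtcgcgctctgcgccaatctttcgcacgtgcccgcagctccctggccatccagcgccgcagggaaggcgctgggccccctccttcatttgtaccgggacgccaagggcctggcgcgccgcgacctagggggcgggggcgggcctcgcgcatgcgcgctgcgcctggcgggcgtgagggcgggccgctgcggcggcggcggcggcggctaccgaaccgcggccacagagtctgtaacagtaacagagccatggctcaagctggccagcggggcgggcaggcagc
HNF4A, upstream start (chr20:44355449-44355748, plus strand): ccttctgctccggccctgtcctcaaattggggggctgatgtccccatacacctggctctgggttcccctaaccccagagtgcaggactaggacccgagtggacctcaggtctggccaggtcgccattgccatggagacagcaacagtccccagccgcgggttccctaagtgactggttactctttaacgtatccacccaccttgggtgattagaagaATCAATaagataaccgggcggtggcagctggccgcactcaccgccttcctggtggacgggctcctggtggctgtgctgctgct
HNF4A, downstream start (chr20:44400989-44401288, plus strand): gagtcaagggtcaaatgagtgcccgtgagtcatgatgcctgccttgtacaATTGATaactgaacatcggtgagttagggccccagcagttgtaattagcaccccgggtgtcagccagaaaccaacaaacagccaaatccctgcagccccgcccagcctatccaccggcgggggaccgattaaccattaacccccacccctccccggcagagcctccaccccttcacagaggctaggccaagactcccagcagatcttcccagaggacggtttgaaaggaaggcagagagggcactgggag
NR5A2, downstream start (chr1:200042341-200042640, plus strand): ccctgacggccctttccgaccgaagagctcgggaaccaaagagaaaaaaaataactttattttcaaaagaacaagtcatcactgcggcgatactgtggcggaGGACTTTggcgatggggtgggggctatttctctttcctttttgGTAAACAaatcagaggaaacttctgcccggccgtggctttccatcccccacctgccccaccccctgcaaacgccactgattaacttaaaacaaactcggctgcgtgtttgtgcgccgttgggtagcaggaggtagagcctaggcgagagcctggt
FOXA1 (chr14:37595200-37595499, minus strand): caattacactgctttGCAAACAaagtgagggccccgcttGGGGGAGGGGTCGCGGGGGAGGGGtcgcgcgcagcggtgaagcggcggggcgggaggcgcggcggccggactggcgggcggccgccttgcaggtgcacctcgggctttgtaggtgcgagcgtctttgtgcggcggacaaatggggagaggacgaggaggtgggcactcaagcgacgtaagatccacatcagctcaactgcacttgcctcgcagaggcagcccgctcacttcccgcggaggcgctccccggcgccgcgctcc
FOXA3 (chr19:45864076-45864375, plus strand): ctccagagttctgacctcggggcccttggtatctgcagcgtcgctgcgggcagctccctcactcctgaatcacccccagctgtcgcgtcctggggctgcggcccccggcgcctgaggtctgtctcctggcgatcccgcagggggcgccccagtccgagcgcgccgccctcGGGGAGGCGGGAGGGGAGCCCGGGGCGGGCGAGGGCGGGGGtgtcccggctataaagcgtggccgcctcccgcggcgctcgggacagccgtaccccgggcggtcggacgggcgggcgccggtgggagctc

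The window of ONECUT1, the member with the largest fold change, is GC-rich (75.0% G or C, against a median of 58.7% over 35116 windows) and holds none of these letters. Both HNF4A windows hold ATTGAT, the ONECUT core, 33 and 200 bases before the start, as do 6.96% of all windows with either ONECUT core. A FOXA core stands 235 bases before the FOXA1 start and 105 bases before the downstream NR5A2 start, and 7.17% of all windows hold one. The same NR5A2 window holds the HNF4 core 148 bases before the start, found in 3.71% of all windows. No NR5A2 core was found in the 7 windows, against 8.82% of all windows. The GGG pattern was found for FOXA1 and FOXA3, in 2 of the 7 windows, and in 8778 of all 35116 windows. A match is a description of letters and was not tied to binding or to expression here.

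In control cells HNF4A was the most abundant of the 8 transcripts, at 46.7 ± 1.41 FPKM (SD, n = 3), above 89.0% of tested genes. FOXA1, PROX1, FOXA3 and FOXA2 formed a middle group between 15.4 and 20.3 FPKM. NR5A2, ONECUT1 and HNF4G were scarce, at 4.46, 4.39 and 3.51 FPKM. Among neighbours in this order, the 3 control libraries of FOXA3 and FOXA2 overlapped, as did those of NR5A2 and ONECUT1, while all other neighbours stood apart. The order changed in the knockdown libraries. FOXA1 stood above FOXA2 under shCtrl without overlap, but overlapped with it under shTRIB3-1 and was at 14.9 against 15.4 FPKM under shTRIB3-2, where FOXA2, FOXA3, FOXA1 and PROX1 each overlapped with the next. By FPKM, ONECUT1 moved from the place above HNF4G to the lowest place in both knockdown groups, with no overlap with HNF4G. The order between genes rests on the gene length behind each value. For ONECUT1 that length was 4352 bases, where GENCODE v44 holds 6110 exon bases, and for HNF4G it was 4971 against 4797. The order of genes at close levels, such as these 2, is therefore not certain in any group.

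**Figure D1:**
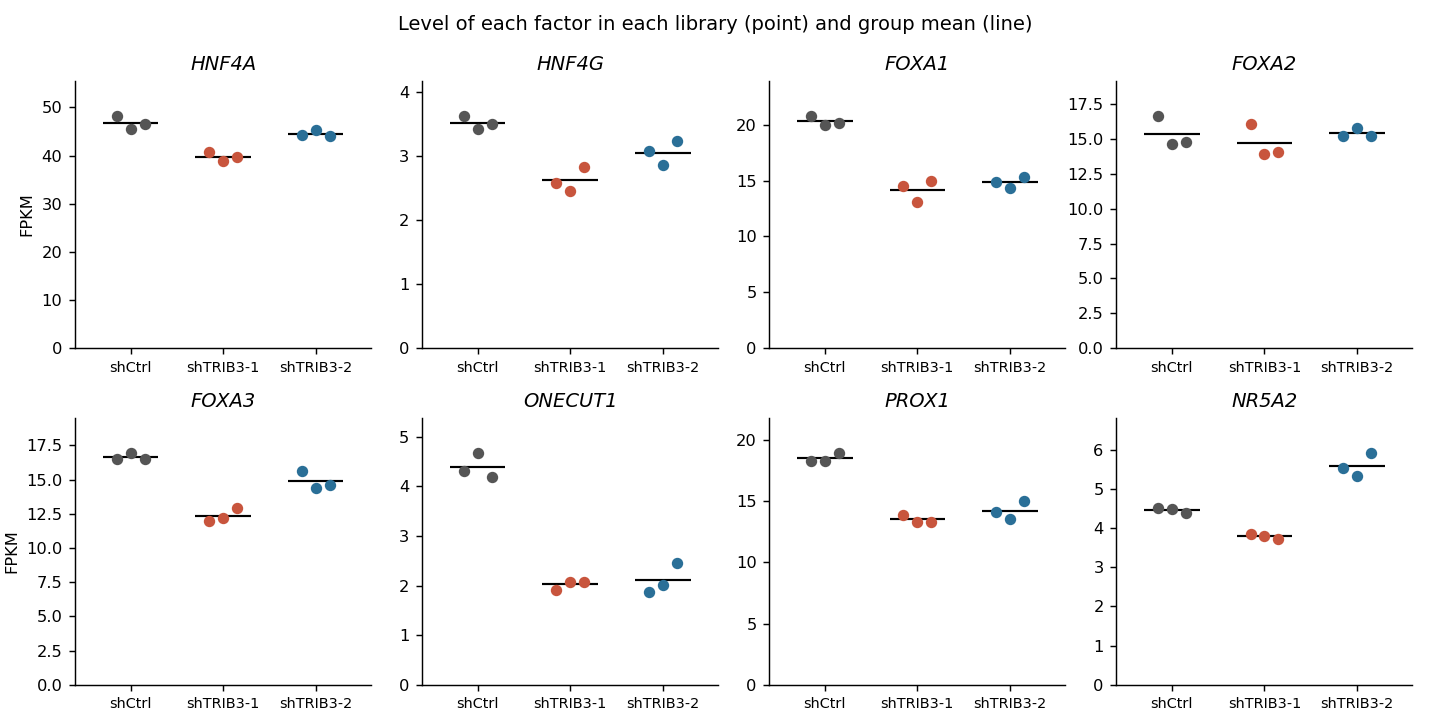
Level in FPKM (y axis, from 0, own scale in each panel) of the 8 factors in the 9 libraries (points) by hairpin (x axis), with the mean of each group as a line. ONECUT1, FOXA1 and PROX1 were lower with both hairpins, FOXA2 overlapped in all groups, and NR5A2 was lower with shTRIB3-1 and higher with shTRIB3-2.

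With shTRIB3-1, 7 of the 8 factors fell and FOXA2 did not pass, where 41.5% of all tested genes passed lower. With shTRIB3-2, 5 fell (HNF4G, FOXA1, FOXA3, ONECUT1 and PROX1), against 40.5% of tested genes, and NR5A2 rose, as did 35.4% of tested genes. The 5 that fell with shTRIB3-2 also fell with shTRIB3-1, a pattern met by 34.3% of tested genes, and both comparisons share the control libraries. ONECUT1 was the single member called lower, with shTRIB3-1 (6.1% of tested genes were called lower), with shTRIB3-2 (6.27%) and with both (4.74%). The median log2 fold change of the 8 factors was -0.42 with shTRIB3-1 and -0.18 with shTRIB3-2. ONECUT1 was left at 46.1% and 48.2% of its control mean, whereas HNF4G, FOXA1, FOXA3 and PROX1 were left at 69.8% to 89.3%.

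**Figure D2:**
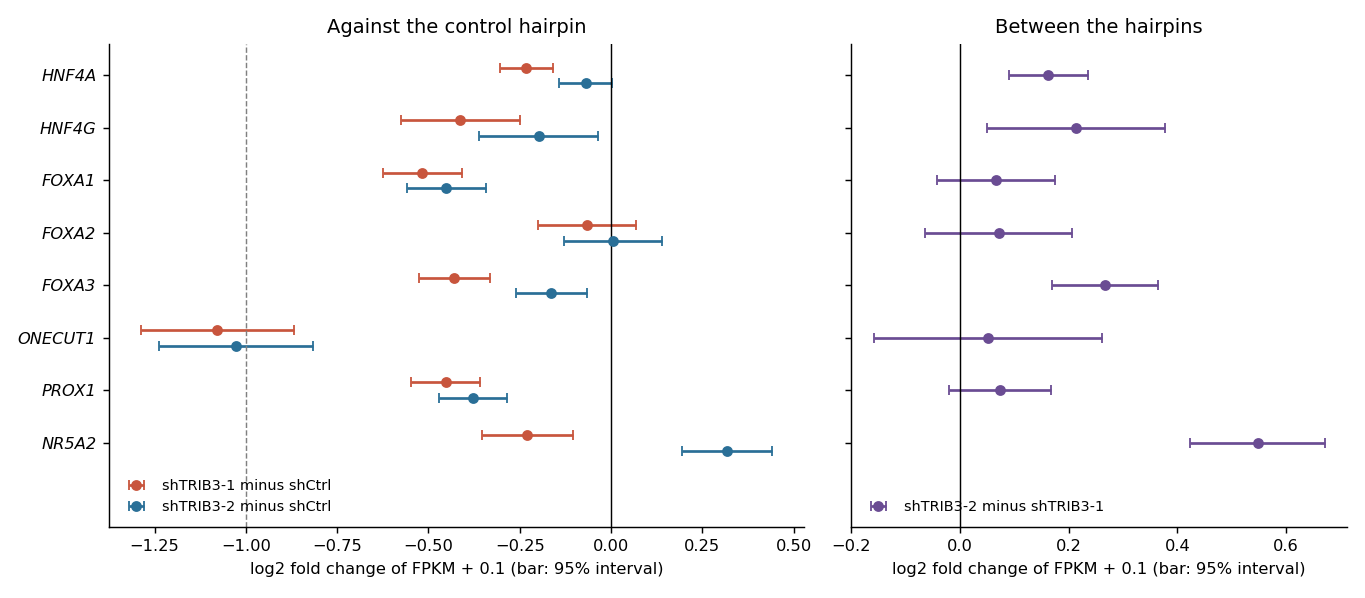
Log2 fold change of FPKM + 0.1 (x axis) of the 8 factors against shCtrl (left) and between the hairpins (right), with 95% confidence intervals from limma; the dashed line marks the fold used for calls. The ONECUT1 intervals span the dashed line, and the NR5A2 estimates lie on opposite sides of 0, at -0.23 and 0.32.

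ONECUT1 (chromosome 15, minus strand, 52755053-52791078, ENSG00000169856.9) encodes HNF6, which acts in liver and bile duct development and on genes of glucose metabolism. Its level was 4.30, 4.68 and 4.19 FPKM under shCtrl, 1.92, 2.08 and 2.08 under shTRIB3-1, and 1.87, 2.02 and 2.45 under shTRIB3-2. Every knockdown library was below every control library, and the hairpin groups overlapped. The log2 fold change was -1.08 (SE 0.10, limma adjusted p = 6.42e-07) with shTRIB3-1 and -1.03 (SE 0.10, adjusted p = 9.04e-07) with shTRIB3-2, lower than in all but 5.13% and 5.98% of tested genes. Between the hairpins it differed by 0.05, with a 95% interval of -0.16 to 0.26. The values rest on 653 to 740 fragments in control libraries and 279 to 374 in knockdown libraries. The decrease passed in all 17 alternative analyses that tested the gene, but its size sits at the fold used for calls: it was -0.83 and -0.79 with a pseudocount of 1, -0.998 and -0.976 with median centring, and -0.98 and -0.95 with shTRIB3-2 once shCtrl replicate 2 or shTRIB3-2 replicate 1 was left out.

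The related gene ONECUT2, chosen here after its values were seen, moved otherwise. It was at 5.84 ± 0.147 FPKM under shCtrl, 5.06 ± 0.248 under shTRIB3-1 and 6.80 ± 0.203 under shTRIB3-2 (SD, n = 3 each). The log2 fold change of ONECUT2 was -0.20 with the first hairpin (limma adjusted p = 0.00433) and 0.22 with the second (adjusted p = 0.0028). By FPKM, ONECUT2 stood above ONECUT1 in all groups, shCtrl included, an order that also rests on the gene lengths used. ONECUT3 was near the limit of detection, with at most 19 fragments in a library.

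The FOXA family held 3 genes at comparable levels that did not move together. FOXA1 (chromosome 14, minus strand, 37589552-37596059, ENSG00000129514.8), which also acts with hormone receptors in breast and prostate, was at 20.81, 19.99 and 20.21 FPKM under shCtrl, 14.55, 13.12 and 14.93 under shTRIB3-1, and 14.87, 14.34 and 15.36 under shTRIB3-2. No knockdown library reached the control range. Its log2 fold change was -0.52 (SE 0.05, limma adjusted p = 1.20e-06) with shTRIB3-1 and -0.45 (SE 0.05, adjusted p = 3.76e-06) with shTRIB3-2. The hairpins differed by 0.07, with an interval of -0.04 to 0.17.

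FOXA2 (chromosome 20, minus strand, 22580998-22585455, ENSG00000125798.15), needed for endoderm formation and bile acid homeostasis, was the member with the least change. Its values were 16.67, 14.68 and 14.79 FPKM under shCtrl, 16.07, 13.92 and 14.09 under shTRIB3-1, and 15.21, 15.78 and 15.24 under shTRIB3-2. All groups overlapped. The log2 difference from control was -0.07 (interval -0.20 to 0.07, limma adjusted p = 0.348) with shTRIB3-1 and 0.00 (interval -0.13 to 0.14, adjusted p = 0.946) with shTRIB3-2. These intervals leave out a decrease as large as that of FOXA1.

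FOXA3 (chromosome 19, plus strand, 45863989-45873797, ENSG00000170608.3), a family member active in adult liver, was at 16.48, 16.97 and 16.49 FPKM under shCtrl, 11.94, 12.17 and 12.90 under shTRIB3-1, and 15.64, 14.36 and 14.58 under shTRIB3-2. The 3 groups did not overlap, with shTRIB3-2 between the others. The change on the log2 scale was -0.43 (SE 0.04, limma adjusted p = 2.46e-06) with shTRIB3-1 and -0.16 (SE 0.04, adjusted p = 0.00516) with shTRIB3-2. The hairpins differed by 0.27 (SE 0.04, adjusted p = 4.62e-04).

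Summed over the 3 genes, FOXA mRNA was 52.4 ± 1.38 FPKM under shCtrl, 41.2 ± 1.78 under shTRIB3-1 and 45.1 ± 0.622 under shTRIB3-2 (SD, n = 3 each), with no overlap between groups. The make-up of the sum differed as well. FOXA1 held 38.8% ± 0.364 of it under shCtrl, 34.4% ± 1.1 under shTRIB3-1 and 32.9% ± 0.942 under shTRIB3-2. FOXA2 held 29.3% ± 1.35, 35.6% ± 2.08 and 34.2% ± 1.16 in the same order, while FOXA3 ran from 28.1% to 34.2% over the 9 libraries. FOXA1 thus had the largest mean share in control cells and FOXA2 in both knockdown groups, where the ranges of FOXA1 and FOXA2 overlapped.

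**Figure D3:**
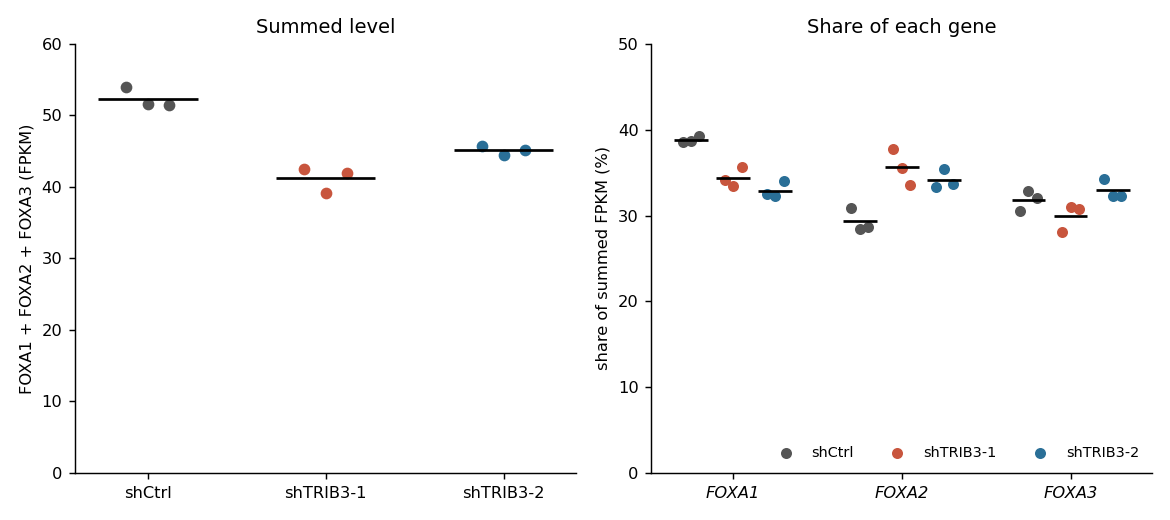
Left, summed FPKM of FOXA1, FOXA2 and FOXA3 (y axis, from 0) in each library (points) with group means (lines). Right, share of that sum held by each gene in percent; FOXA1 held 38.8% under shCtrl and 34.4% and 32.9% in the knockdown groups, while FOXA2 held 29.3%, 35.6% and 34.2%.

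HNF4A (chromosome 20, plus strand, 44355699-44432845, ENSG00000101076.20) is a nuclear receptor that governs a large share of hepatocyte genes. It was at 48.26, 45.48 and 46.49 FPKM under shCtrl, 40.81, 38.79 and 39.78 under shTRIB3-1, and 44.25, 45.36 and 44.03 under shTRIB3-2. The shTRIB3-1 libraries lay below all others, and the highest shTRIB3-2 library stood just under the lowest control library. Against control the log2 fold change was -0.23 (SE 0.03, limma adjusted p = 4.26e-05) with shTRIB3-1 and -0.07 (SE 0.03, adjusted p = 0.0761) with shTRIB3-2, and the hairpins differed by 0.16 (SE 0.03, adjusted p = 0.00177). With shTRIB3-2 the difference passed in 2 alternatives, after rescaling to TPM (adjusted p = 0.0257) and with voom on whole fragments (adjusted p = 0.0429), and over all alternatives its adjusted p ran from 0.0257 to 0.703. The gene has alternative start sites, shown among the windows above, and the gene-level values do not separate them.

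HNF4G (chromosome 8, plus strand, 75407914-75566834, ENSG00000164749.13), a close relative of HNF4A known mainly from intestine, kidney and pancreas, was at 3.62, 3.41 and 3.50 FPKM under shCtrl, 2.58, 2.45 and 2.82 under shTRIB3-1, and 3.07, 2.86 and 3.22 under shTRIB3-2. The groups did not overlap, although the highest shTRIB3-1 and the lowest shTRIB3-2 library lay close together. On the log2 scale it changed by -0.41 (SE 0.07, limma adjusted p = 3.12e-04) with shTRIB3-1, -0.20 (SE 0.07, adjusted p = 0.0295) with shTRIB3-2 and 0.21 (SE 0.07, adjusted p = 0.035) between the hairpins. With shTRIB3-2 it no longer passed with median centring (adjusted p = 0.0596), with quantile normalization (adjusted p = 0.0928), and without shCtrl replicate 1 (0.0884), shCtrl replicate 3 (0.062), shTRIB3-2 replicate 1 (0.0555) or shTRIB3-2 replicate 2 (0.0935), where the log2 fold change was -0.13 to -0.20. The difference between hairpins likewise no longer passed in 6 alternatives, at 0.17 to 0.21 on the log2 scale, among them without shTRIB3-1 replicate 1 (adjusted p = 0.0849), shTRIB3-1 replicate 2 (0.124), shTRIB3-2 replicate 1 (0.0839) or shTRIB3-2 replicate 3 (0.118). HNF4A made up 93.01% of the HNF4 sum under shCtrl, 93.8% under shTRIB3-1 and 93.6% under shTRIB3-2.

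PROX1 (chromosome 1, plus strand, 213983181-214041510, ENSG00000117707.17) encodes a homeodomain protein of liver and lymphatic development that acts as a corepressor of HNF4A and NR5A2. It was at 18.27, 18.27 and 18.95 FPKM under shCtrl, 13.88, 13.32 and 13.27 under shTRIB3-1, and 14.09, 13.57 and 14.98 under shTRIB3-2. All knockdown libraries lay below the controls, and the hairpin groups overlapped. The change on the log2 scale was -0.45 (SE 0.04, limma adjusted p = 1.14e-06) with shTRIB3-1 and -0.38 (SE 0.04, adjusted p = 5.23e-06) with shTRIB3-2. The difference between hairpins was 0.07, with an interval of -0.02 to 0.17.

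NR5A2 (chromosome 1, plus strand, 200027614-200177420, ENSG00000116833.14) encodes LRH-1, a nuclear receptor of bile acid, cholesterol and glucose metabolism. It was at 4.51, 4.50 and 4.38 FPKM under shCtrl, 3.84, 3.80 and 3.73 under shTRIB3-1, and 5.53, 5.32 and 5.93 under shTRIB3-2. The control libraries stood between the hairpin groups with no overlap. Against control the log2 fold change was -0.23 (SE 0.06, limma adjusted p = 0.00292) with shTRIB3-1 and 0.32 (SE 0.06, adjusted p = 2.57e-04) with shTRIB3-2. The hairpins differed by 0.55 (SE 0.06, adjusted p = 1.19e-05), with shTRIB3-2 higher. In that direction, 2.49% of tested genes had a larger difference. The 3 tests gave the same directions and passed under all 18 alternatives tried. One of these, the filter at 5 FPKM, admitted NR5A2 only through the shTRIB3-2 libraries, where it was high. A decrease with shTRIB3-1, an increase with shTRIB3-2 and a higher level with shTRIB3-2 than with shTRIB3-1 all passed in 0.932% of tested genes.

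Between the hairpins, 4 of the 8 factors were higher with shTRIB3-2 (HNF4A, HNF4G, FOXA3 and NR5A2) and 0 were lower, where 25.1% of tested genes passed higher. None was called in limma, the largest difference being 0.55 for NR5A2, where 2.08% of tested genes were called in either direction. The 4 factors that did not pass (FOXA1, FOXA2, ONECUT1 and PROX1) had estimates of 0.05 to 0.07. The order of residual TRIB3 was the reverse, with 20.5 FPKM under shTRIB3-2 and 33.6 under shTRIB3-1, and with 2 hairpins a dose of TRIB3 and a property of either hairpin cannot be told apart.

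As a description, the genes whose log2 values followed each factor most closely over the 9 libraries were listed. These libraries fall into 3 groups, so r mostly reflects the group means. FOXA1 was followed by SPRY1 (Pearson r = 0.997) and SGSH (0.995), PROX1 by SHROOM1 (0.996) and EPM2AIP1 (0.996), and ONECUT1 by NUFIP2 (0.996) and RANBP1 (0.991). FOXA3 was followed by BCAR3-AS1 (0.994) and by APOB (0.991), the structural protein of very-low-density lipoprotein, which was at 840.2 FPKM under shCtrl, 678.1 under shTRIB3-1 and 786.1 under shTRIB3-2. HNF4A was followed by AP3D1 (0.989) and LINC02542 (0.985), HNF4G by PCMTD2 (0.984) and YBEY (0.982), and NR5A2 by ZNF770 (0.9898) and LOC389602 (0.983). FOXA2, with the least change, had the weakest match, ADA (0.927) and SLC25A23 (0.896).

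Noncoding neighbours of the factors were read beside them, named here after their values were seen. HNF4A-AS1, transcribed next to HNF4A in the opposite direction, was at 8.99 ± 0.519 FPKM under shCtrl, 3.34 ± 0.343 under shTRIB3-1 and 5.07 ± 0.101 under shTRIB3-2 (SD, n = 3 each), a log2 fold change of -1.41 (limma adjusted p = 4.58e-09) and -0.81 (adjusted p = 6.05e-07). Its exons do not overlap those of HNF4A in GENCODE v44, where 0% of the HNF4A exon bases lie opposite another gene. LINC00261, which neighbours FOXA2, was at 28.6 ± 0.0925 FPKM under shCtrl, 20.3 ± 0.633 under shTRIB3-1 and 28.3 ± 1.43 under shTRIB3-2. It fell with shTRIB3-1 (-0.49, adjusted p = 2.90e-07) and stood at -0.01 with shTRIB3-2 (adjusted p = 0.781), while FOXA2 itself passed with neither hairpin. PROX1-AS1 lay under 1 FPKM in every library and was not tested. For PROX1, 1.83% of exon bases lie opposite PROX1-AS1, and for FOXA1, 0.362% lie opposite TTC6, so few fragments could be shared.

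Other liver-enriched factors and nuclear receptors changed in both directions. Of 45 listed, 40 were tested, 22 fell and 13 rose with shTRIB3-1, and 20 fell and 14 rose with shTRIB3-2. Over all tested genes, 41.5% fell and 32.9% rose with shTRIB3-1, and 40.5% fell and 35.4% rose with shTRIB3-2. CEBPA, the bZIP factor that cooperates with these proteins at liver genes, fell from 34.0 ± 0.805 to 18.6 ± 0.950 and 17.7 ± 0.291 FPKM (SD, n = 3 each), a log2 fold change of -0.87 and -0.94 (limma adjusted p = 1.84e-09 and 7.81e-10). Members called lower with both hairpins included CEBPD (-1.47 and -1.80), NR1H4, the bile acid receptor FXR (-1.45 and -1.4), and HHEX, a homeodomain factor of early liver (-1.09 and -1.29). KLF6 was called higher (1.74 and 1.86). Among the most abundant, XBP1, a factor of secretory capacity, fell by 0.90 and 0.91 on the log2 scale, and HLF fell by 0.73 and 0.23. MLXIPL, the carbohydrate response factor, fell by 0.32 with shTRIB3-1 and stood at -0.11 with shTRIB3-2 (adjusted p = 0.0664).

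Among 19 tested coregulators of 23 listed, 13 fell and 1 rose with shTRIB3-1, and 12 fell and 3 rose with shTRIB3-2, where 41.5% and 40.5% of all tested genes fell and 32.9% and 35.4% rose. NR0B2, which encodes SHP, a repressor of NR5A2 and HNF4A and itself a target of NR5A2, was at 89.1 ± 3.33 FPKM under shCtrl, 73.0 ± 1.79 under shTRIB3-1 and 132.1 ± 4.18 under shTRIB3-2 (SD, n = 3 each). It fell by 0.29 on the log2 scale with shTRIB3-1 (limma adjusted p = 1.46e-05) and rose by 0.57 with shTRIB3-2 (adjusted p = 2.39e-08), the same directions as NR5A2. PPARGC1A, a coactivator of HNF4A in gluconeogenesis, was at 1.81 ± 0.138 FPKM under shCtrl, 0.305 ± 0.0219 under shTRIB3-1 and 0.392 ± 0.0762 under shTRIB3-2. Its log2 fold change was -2.23 (adjusted p = 6.46e-08) and -1.96 (adjusted p = 1.83e-07). PPARGC1A lay under 1 FPKM in every knockdown library and entered the tests only through the control libraries, where it was high. Of the more abundant coregulators, the arginine methyltransferases PRMT1 and CARM1 and the demethylase KDM1A fell with both hairpins, by 0.26 and 0.25, 0.39 and 0.88, and 0.10 and 0.33 on the log2 scale.

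Genes listed as targets of HNF4A, FOXA, ONECUT1 and NR5A2 were counted in 4 lists that share members. The lists were written from general knowledge, so binding in liver is not established for each gene. HNF4G and PROX1 had no list. Over the joined list, 76 genes were listed and 57 tested. With shTRIB3-1, 31 fell and 17 rose (41.5% and 32.9% of all tested genes), and the median log2 fold change was -0.26 against -0.06 for all tested genes. With shTRIB3-2, 24 fell and 26 rose (40.5% and 35.4% of all tested genes), with a median of 0.00 against -0.03. Between the hairpins, 38 of 57 were higher with shTRIB3-2 and 4 were lower (PCK1, CYP7A1, SPP1 and MYC, named after their values were seen), with a median of 0.32 against 0.03. In the 4 lists, 24 of 32 tested HNF4A targets were higher with shTRIB3-2 than with shTRIB3-1 and 2 lower, 14 and 1 of 17 FOXA targets, 7 and 3 of 11 ONECUT1 targets, and 7 and 2 of 18 NR5A2 targets. Over all tested genes, 25.1% passed higher and 20.7% lower in that comparison.

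**Figure D4:**
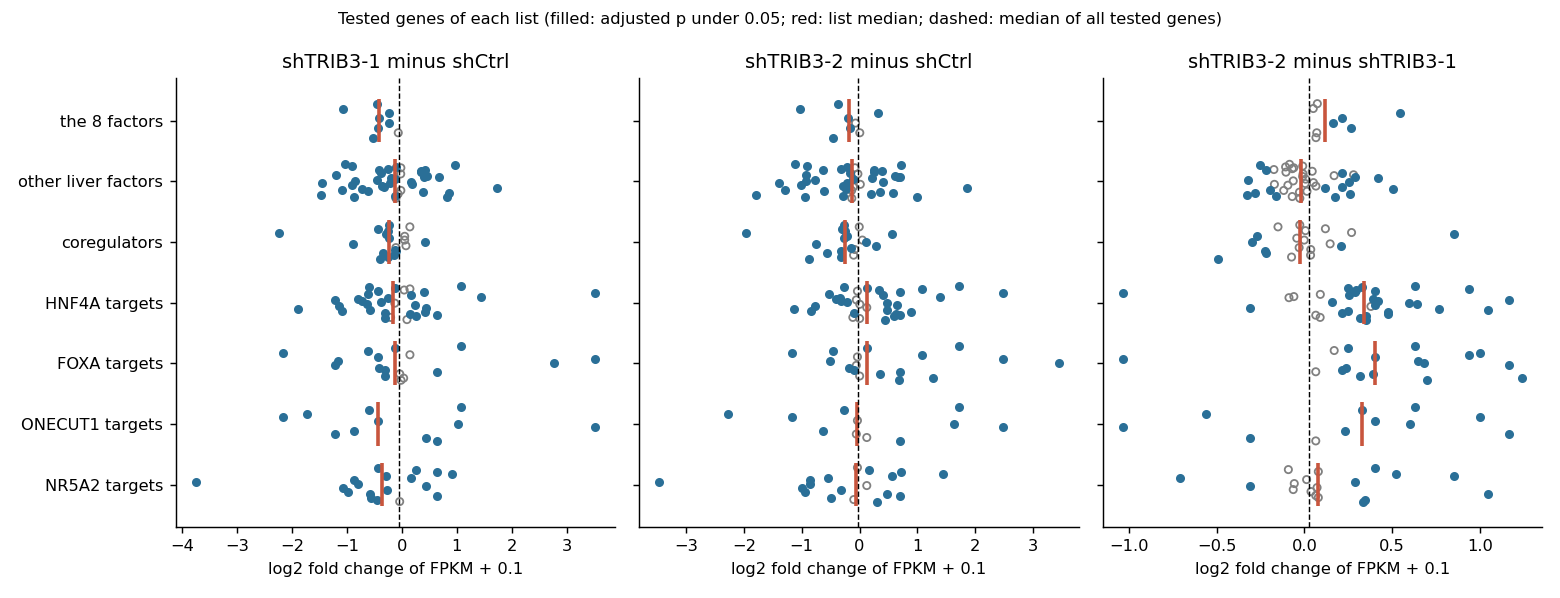
Log2 fold change of FPKM + 0.1 (x axis) of every tested gene in 7 lists (rows) for the 3 comparisons (panels); filled points have an adjusted p under 0.05, red bars are list medians and the dashed line is the median of all tested genes. In the panel that compares the hairpins, the medians of the HNF4A, FOXA and ONECUT1 target lists lie at 0.34, 0.41 and 0.33 and that of the NR5A2 target list at 0.08, with the dashed line at 0.03.

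Single targets went in different directions. HP, the plasma protein haptoglobin, was at 82.6 ± 7.12 FPKM under shCtrl, 6.01 ± 0.389 under shTRIB3-1 and 7.40 ± 0.878 under shTRIB3-2 (SD, n = 3 each), a log2 fold change of -3.76 (limma adjusted p = 6.02e-12) and -3.47 (adjusted p = 6.76e-12). SLC2A2, the hepatic glucose transporter GLUT2, changed by -2.16 and -1.16 on the log2 scale, CYP2D6, a drug-metabolizing enzyme, by -1.89 and -1.13, and SPP1, the secreted protein osteopontin, by -1.72 and -2.28. PCK1, the entry enzyme of gluconeogenesis, rose by 3.52 and 2.49 from 1.46 ± 0.0456 FPKM. MTTP, which loads lipid onto apoB, rose by 1.44 and 1.39, and TTR, the thyroid hormone carrier transthyretin that is listed for HNF4A, FOXA and ONECUT1, rose by 1.08 and 1.71. CYP7A1, the rate-limiting enzyme of bile acid synthesis, rose by 0.43 with shTRIB3-1 (adjusted p = 0.000489) and stood at 0.13 with shTRIB3-2 (adjusted p = 0.19).

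Of the most abundant targets, ALB was at 5213 ± 249.4 FPKM under shCtrl, 5073 ± 177.2 under shTRIB3-1 and 6645 ± 66.1 under shTRIB3-2 (SD, n = 3 each), and it passed with shTRIB3-2 only (0.35, limma adjusted p = 4.86e-05, against -0.04 and 0.506 with shTRIB3-1). The difference of ALB between the hairpins passed as well (0.39, adjusted p = 7.63e-05). APOA2 rose with both hairpins (0.15 and 0.63), as did APOA1 (0.63 and 0.70). APOH fell with both (-1.09 and -0.84), as did MAT1A, the liver enzyme that makes S-adenosylmethionine (-0.88 and -0.86), and GJB1, the gap junction protein connexin 32 (-0.87 and -0.63). SERPINA1 fell with shTRIB3-1 (-0.44, adjusted p = 2.11e-07) and stood at -0.04 with shTRIB3-2 (adjusted p = 0.366).

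Cell type markers were read as a check of the labels, and those given by name here were chosen after their values were seen. All 15 hepatocyte markers were tested. They summed to 15196 to 16375 FPKM under shCtrl, 13339 to 14016 under shTRIB3-1 and 16902 to 17442 under shTRIB3-2. With shTRIB3-1, 8 fell and 5 rose (41.5% and 32.9% of all tested genes). With shTRIB3-2, 5 fell and 9 rose (40.5% and 35.4%). Between the hairpins, 14 of the 15 were higher with shTRIB3-2 than with shTRIB3-1, as were 25.1% of all tested genes. Endothelial markers summed to at most 0.787 FPKM in any library, 6 of 7 fibroblast markers (all but ACTA2) lay under 1 FPKM everywhere, and the defining leukocyte gene PTPRC was at 0 under shCtrl and at most 0.00448 FPKM elsewhere. The leukocyte sum of 534.0 to 1179 FPKM came mostly from LYZ, which fell by 1.09 and 0.85 on the log2 scale. Cholangiocyte markers, 6 of 10 tested, summed to 1019 to 1048 FPKM under shCtrl, 984.5 to 1025 under shTRIB3-1 and 934.8 to 953.2 under shTRIB3-2, and 3 rose and 2 fell with each hairpin, against 32.9% and 41.5% of all tested genes with shTRIB3-1 and 35.4% and 40.5% with shTRIB3-2. Among them KRT19 rose by 1.43 and 1.41, while SOX9 fell by 0.81 and 1.09 and SPP1 by 1.72 and 2.28. Enterocyte markers, 6 of 12 tested, summed to 155.8 to 162.2 FPKM under shCtrl, 319.3 to 329.3 under shTRIB3-1 and 401.9 to 427.9 under shTRIB3-2. APOA4, a lipoprotein gene of the intestine, gave most of the increase in the sum (1.97 to 148.0 and 196.8 FPKM). Of the 6 enterocyte markers, 5 rose and 1 fell with shTRIB3-1, against 32.9% and 41.5% of all tested genes. With shTRIB3-2, 4 of them rose and 1 fell, against 35.4% and 40.5%. Their median log2 fold change was 0.99 and 0.96, against -0.06 and -0.03 for all tested genes. CDX2, a master factor of intestine, lay under 1 FPKM in every library. The part of other cell states in the changes of the 8 factors was not tested. In a bulk sample, fewer cells with a transcript and less transcript per cell cannot be told apart.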

How the data were processed

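RNA-seq libraries were prepared from HepG2 cells, 3 for each of 3 hairpins, and grouped by their labels. The authors deposited 1 table of FPKM values with 1 column per library. The submitters' processing notes name GRCh38, HTSeq and R 3.2.0, and the study's methods name STAR and DESeq2. The annotation release and the strand setting of the counting are not given in the sources used here, and labels and methods name different library kits. FPKM does not correct for composition, so a rise of abundant genes lowers other values in that library.

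Whole fragments were recovered from the FPKM steps: of 172769 values above 0, 100% came within 0.02 of a whole number, which gave the totals per library. Fragments were counted without molecular identifiers. Replicates of a group differed by more than sampling noise (chi-square per degree of freedom of 3.13 to 7.54), so none was a copy. Genes with at least 1 FPKM in at least 3 of 9 libraries were tested on log2(FPKM + 0.1), a scale that understates the change of low genes, with limma 3.58.1 in R 4.3.3 (3 group means, mean-variance trend, two-sided, Benjamini-Hochberg adjustment over 11265 genes). A gene that was low in some groups could enter the tests through the group where it was high. Because the values are FPKM, no count model served as the main test. Alternatives were pseudocount, filters, scaling, voom on recovered fragments, a replicate block, the groups in the fit and leaving out each library.

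The 8 members and all gene lists were chosen with earlier results of these data known, and the lists were written from general knowledge and compared with no database. Named genes were the 8 members, TRIB3, 2 most correlated genes per member, up to 4 genes per list called with both hairpins, up to 4 most abundant genes in the lists of targets, coregulators and liver factors, and the partners NR0B2, PPARGC1A, CEBPA and CYP7A1. Others are said to be named after their values were seen. A gene that this rule names is not reported here. Of the listed genes, 4 target genes and some genes of other lists were not found in the table by symbol. Loci are from GENCODE v44 (GRCh38).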

Additional observations from a re-analysis of the deposited data

Results flagged for a closer look

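For 4 of the 8 factors the fold change against shCtrl differed between the hairpins in the direct limma test of shTRIB3-2 against shTRIB3-1, as 45.8% of all tested genes did. NR5A2 differed by 0.55 on the log2 scale (adjusted p = 1.19e-05), with -0.23 under shTRIB3-1 and 0.32 under shTRIB3-2, and all 3 libraries of each hairpin lay on their own side of the control range. FOXA3 differed by 0.27 (adjusted p = 4.62e-04), with -0.43 and -0.16. HNF4G differed by 0.21 (adjusted p = 0.035), with -0.41 and -0.20, and its adjusted p ran from 0.0158 to 0.124 over the alternatives. HNF4A differed by 0.16 (adjusted p = 0.00177), with -0.23 and -0.07. The cause of these differences was not tested.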

How the results depend on the processing

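Every member and comparison was recomputed under 9 alternatives and after leaving out each of the 9 libraries. The number of members that passed stayed within 1.5 times the reported one except for both hairpins at an FPKM of at least 5, where it was 3 because HNF4G and ONECUT1 were not tested. The single call of ONECUT1 became 0 with an FPKM of at least 5, where the gene was not tested, with a pseudocount of 1 and median centring for each hairpin and for both, and with quantile normalization for shTRIB3-2 and for both, where its log2 fold change lay inside the limit of 1. Leaving out 1 library gave 0 to 1 called members with shTRIB3-2 and for both hairpins (0 without shCtrl replicate 2 or shTRIB3-2 replicate 1). Changes of sign occurred where the difference did not pass: FOXA2 moved to 0.0139 with shTRIB3-1 under median centring, to -0.0186 with shTRIB3-2 under TPM and ran from -0.0272 to 0.064 there as single libraries were left out, and ONECUT1 between the hairpins ran from -0.0546 to 0.1296. The replicate numbers did not pair the libraries (correlation of same-numbered deviations -0.07 to 0.09), and with the replicate block 7, 6, 4 and 5 members passed with shTRIB3-1, with shTRIB3-2, between hairpins and with both, as without it. Of 57 tested target genes, 35 to 39 were higher with shTRIB3-2 than with shTRIB3-1 under the alternatives other than leaving out libraries. Changes under 0.2 on the log2 scale are limited by the spread between 3 libraries, and levels of HNF4G and ONECUT1 also by their fragment numbers, 279 at the lowest.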

Other observations

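Transcription factors of epithelial-mesenchymal transition and of other endoderm organs were listed as a counterpart to the 8 liver factors. Most were absent from the table by symbol or lay under 1 FPKM in every library. Of 6 listed transition factors, 5 were in the table and 2 were tested. SNAI1 was at 0.875 ± 0.0510 FPKM under shCtrl, 2.35 ± 0.0857 under shTRIB3-1 and 1.78 ± 0.497 under shTRIB3-2 (SD, n = 3 each), a log2 fold change of 1.33 and 0.92 (limma adjusted p = 5.19e-06 and 1.18e-04). The control mean of SNAI1 lay under 1 FPKM, so its entry into the tests rested on the knockdown libraries, where it was higher. ZEB1 rose by 0.62 and 0.72 (adjusted p = 9.23e-06 and 2.14e-06).

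Of 23 listed factors of pancreas, intestine, lung and stomach, 13 were in the table, and 7 of them lay under 1 FPKM in every library. The 13 summed to 57.3 to 61.2 FPKM under shCtrl, 51.3 to 53.4 under shTRIB3-1 and 44.1 to 46.4 under shTRIB3-2. Of these, 6 were tested. With shTRIB3-1, 3 rose and 2 fell (32.9% and 41.5% of all tested genes), and with shTRIB3-2, 4 rose and 1 fell (35.4% and 40.5%). KLF4, a factor of differentiating gut epithelium, was at 0.504 ± 0.130 FPKM under shCtrl, 4.0 ± 0.321 under shTRIB3-1 and 2.10 ± 0.165 under shTRIB3-2, and it was called higher with both hairpins (2.78 and 1.88, adjusted p = 3.00e-09 and 8.98e-08). KLF4 was at most 0.653 FPKM in control libraries, so it entered the tests only through the knockdown libraries, where it was high. Its place in the counts above rests on that filter. KLF5, a factor of gut crypts, was called higher as well (1.65 and 1.33, adjusted p = 4.17e-09 and 2.52e-08). SOX9, a factor of bile duct and progenitor cells, fell by 0.81 and 1.09 on the log2 scale. All of these genes other than KLF4 and KLF5 were named after their values were seen.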
